A study of Mus musculus with 2 samples.

Results

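Histone genes were examined in luminal cells of the mouse prostate, an epithelium, sorted as positive or negative for a fluorescent histone label. Members were chosen by gene symbol alone: genes of the replication-dependent clusters have symbols that begin with Hist1h to Hist4h, and variant histone genes have symbols that begin with H1f, H2af or H3f. Of the 18724 genes in the table, 67 were members, 56 of them replication-dependent and 11 variant. A further 1 row, the pseudogene Hist3h2bb-ps, matched and was left out. All 67 passed the filter on low values, a mean normalised count of at least 10 over the libraries. The symbol rule kept 2 members that are not protein-coding in the annotation, the processed pseudogene Hist1h2al and the antisense transcript H3f3aos. Another 22 histone symbols, 17 of them protein-coding, had no row and were not analysed here.

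The study sorted luminal cells from prostates of mice aged 18 weeks by a fusion of histone H2B and green fluorescent protein (GFP). A label of this kind is diluted at each division, so that a cell which divides rarely keeps it longer. The label-retaining group, sorted as GFP-positive, and the non-retaining group, sorted as GFP-negative, each had 1 library of total RNA, with 50689229 and 48334265 reads in the genes of the table. The strain, the promoter that drives the label, the sort's surface markers and the number of mice pooled were not given in the sources used here. Both groups come from mice with the label and are listed with no treatment. Because each group was 1 library, differences have no replicate check, and every value below compares these libraries rather than the conditions.

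Histones H2A, H2B, H3 and H4 form the core on which DNA is wrapped, and the linker histone H1 binds where DNA enters and leaves it. Replication-dependent histone genes lie in clusters and are transcribed mainly while DNA is copied, and most of their messages end in a short hairpin, bound by the protein SLBP, in place of a poly(A) tail. Variant histones such as H3.3 and H2A.Z are made throughout the cell cycle from ordinary polyadenylated messages and are placed into chromatin by dedicated chaperones. Dividing cells therefore hold more replication-dependent histone RNA, while cells that have stopped dividing rely on variants and on a few cluster genes that also make polyadenylated messages. The libraries were made with a stranded kit for total RNA, per the labels' protocols, a kind of kit that does not select for poly(A) tails.

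The hairpin at the message end is shown first because it marks the replication-dependent class. It was searched for, as a 6-base perfect stem opening with GG and a 4-base loop opening with TTT, in the annotated transcripts (GENCODE M21, GRCm38), and found in 37 of the 56 replication-dependent genes, 21 to 58 bases after the stop codon. Capitals mark the paired stem and lower case the loop. The first form was found in 21 genes and in 0 of the H4 family, for example in Hist1h3a (chr13:23761890-23761905, minus strand). The second was found in 6 genes, all H4, for example Hist1h4d (chr13:23581950-23581965, plus strand). The third was found in 5 H2B and H3 genes such as Hist1h2bk (chr13:22036300-22036315, plus strand), and the fourth in the H4 genes Hist1h4b and Hist1h4j (the latter at chr13:21735437-21735452, plus strand). The last comes from H2afx (chr9:44335240-44335255, plus strand), which was the only variant member with a match.
Hist1h3a form: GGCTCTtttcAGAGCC
Hist1h4d form: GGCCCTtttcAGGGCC
Hist1h2bk form: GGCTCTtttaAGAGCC
Hist1h4j form: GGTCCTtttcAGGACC
H2afx form: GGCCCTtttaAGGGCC
Another 2 forms, in 2 H4 genes and in Hist2h2ac, differ from these in the loop. H4 messages thus differed from the rest of the replication-dependent class in the letters of the stem. Of the 18 replication-dependent genes without a match that have a coding sequence in the annotation, 14 had a transcript model that ended under 60 bases after the stop codon, so the window may have been too short to hold it.

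Values are reads recovered from the deposited normalised counts, and ratios are log2 of the label-retaining over the non-retaining normalised count, each with an exact (Clopper-Pearson) 95% interval that covers counting error only. A gene was called higher or lower when it was at least 2-fold apart and its interval excluded equality. Over all 17183 measured genes, 14.5% were called higher, 19.4% lower and 33.8% either, and the median ratio was -0.0052. In bulk RNA, fewer cells of a type and less RNA per cell cannot be told apart.

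Replication-dependent histone genes were called lower in the label-retaining library more often than genes at large, though most were not called. Of 56 genes, 23 (41.1%) were called lower, against 19.4% of all measured genes, and 2 (3.57%) were called higher, against 14.5%. The other 31 were neither. The median log2 ratio was -0.62, with quartiles at -1.38 and 0.02 and a range from -2.40 to 1.40, and 40 of the 56 point values lay below 0. The intervals of 14 members held 0. Summed over the class, the label-retaining library had 24180 reads and the non-retaining library 37425, or 0.0477% and 0.0774% of each library's reads. That sum gave a log2 ratio of -0.50 (-0.52 to -0.47).

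The variant genes were nearer to equality one by one, but only slightly so in sum. Of 11 genes, 1 was called higher and 0 lower, with a median of -0.21 and a range from -0.90 to 1.005. Together they had 60259 label-retaining against 89665 non-retaining reads, a log2 ratio of -0.44 (-0.45 to -0.42). The class medians differed by -0.41 (replication-dependent minus variant), whereas the class sums differed by -0.06. H3f3b supplied most variant reads, and without it the sum was at -0.41. Without the members that are not protein-coding, the medians were -0.64 and -0.20.

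**Figure D1:**
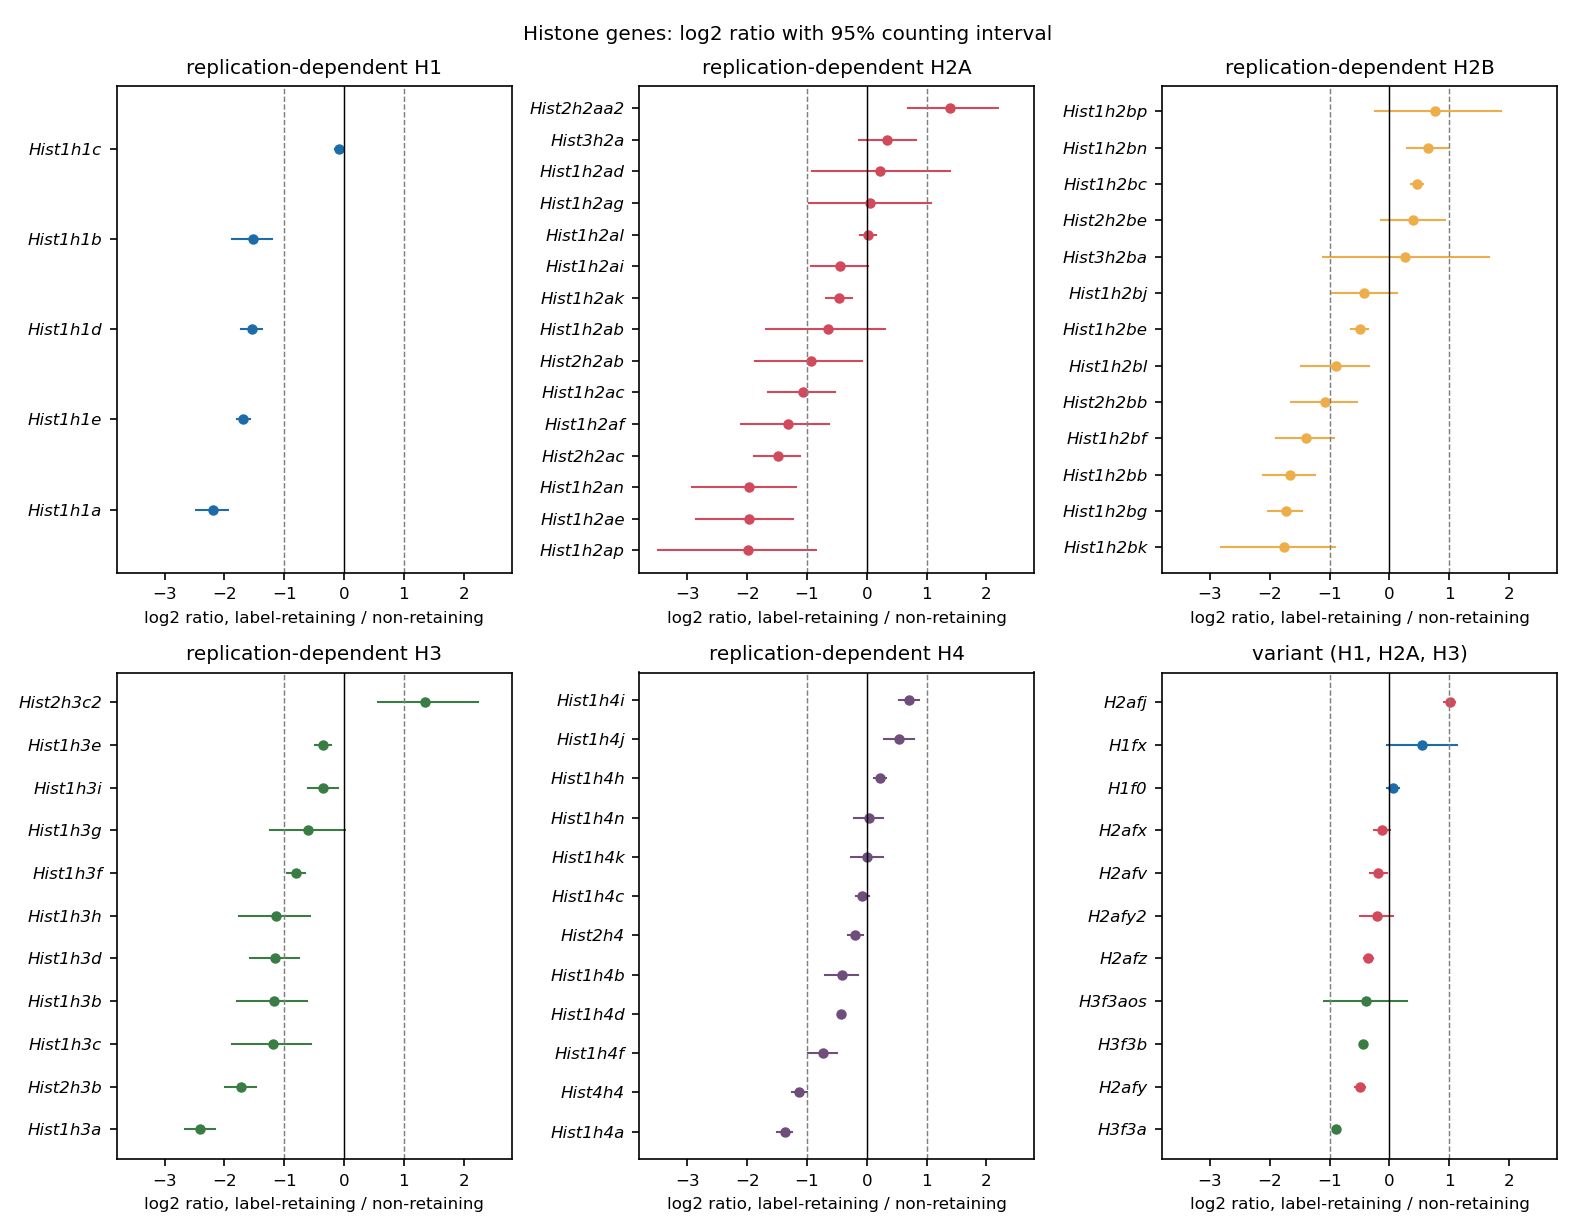
Log2 ratio (label-retaining over non-retaining normalised counts, horizontal axis) of each of the 67 histone genes, with a panel for each replication-dependent family and 1 for the variants, where colours mark the families. Points are genes, bars are exact 95% counting intervals from 1 library per group, and dashed lines mark 2-fold; H1 genes other than Hist1h1c sit beyond the lower line, while H4 genes lie around a median of -0.13.

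These ratios rest on the scaling that the authors deposited, and a different scaling moves every gene by the same amount. Scaling on total reads shifted all ratios by -0.20, TMM by less than 0.01, and setting the luminal keratins Krt8 and Krt18 to equality by -0.76. These shifts point down or are close to 0, so that no lower call could be lost under them. The 2 higher cluster genes were not called under the keratin scaling, and the higher variant, H2afj, was called neither under it nor on total reads. Under the keratin scaling the class had 0 higher and 37 lower genes, against 957 higher (5.57%) and 6881 lower (40.05%) over all measured genes. Differences between members, such as that between the class medians, do not depend on the scaling.

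The sorts also differed in markers of other cells. On the deposited scaling, the median shift of every marker list below, the luminal one included, was larger in size than that of either histone class. Luminal markers were abundant in both libraries, with 148223 against 89295 reads of Krt8, and 6 of the 12 listed were called higher. All 10 basal markers were called lower (median -4.29), their summed normalised counts being 51732 against 380082. Leukocyte markers were lower in 8 of 13 and higher in 2 (sums 9684 against 23317), with Gzma at 0 reads in the label-retaining library. Smooth muscle markers were lower in 6 of 6 (1132 against 10699), endothelial in 4 of 5 (428 against 1061), fibroblast in 2 of 5 with 2 higher (12769 against 89519) and red cell in 3 of 3 (330.3 against 9071). Seminal vesicle secretion genes were higher in 7 of 7 (84299 against 768), with Svs3a and Svs6 at 0 reads in the non-retaining library. The part of these markers in the histone ratios was not tested.

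The linker histone family had the lowest median of the 5 replication-dependent families, -1.54, with 4 of 5 genes called lower. Hist1h1a, which encodes linker histone H1.1 (ENSMUSG00000049539.2, chr13:23763666-23764406), had 141 label-retaining against 711 non-retaining reads, a ratio of -2.20 (-2.47 to -1.94). Hist1h1e, which encodes H1.4, had 926 against 3269 reads (-1.69). Hist1h1d, which encodes H1.3, had 364 against 1166 (-1.54), and Hist1h1b, which encodes H1.5, had 100 against 318 (-1.53). The fifth member stood apart: Hist1h1c, which encodes H1.2 and is on the list of cluster genes that can make polyadenylated messages, had 3821 against 4466 reads, a ratio of -0.09 (-0.15 to -0.03). Without it the family summed to 1531 against 5464 reads, 3.25-fold lower in the label-retaining library (-1.70, -1.78 to -1.62). Hist1h1c thus made up most of the linker histone reads in the label-retaining library but less than the other 4 together in the non-retaining one. These genes are less alike in sequence than the core histone genes, and Hist1h1a and Hist1h1b shared 0% of their 50-base words with transcripts of other genes.

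The sequences directly upstream of the H1 genes are shown because Hist1h1c differed from the other 4 in ratio and, in part, in these letters. They are the 120 bases before the RefSeq start on GRCm38.p6, read on the strand of the gene, with capitals for 3 motifs found on either strand. These are the CCAAT box (CCAAT), the core of the TATA box (spelled TATAA) and the H1 box (spelled AAACACA). Overlapping matches were merged.
Hist1h1a (chr13:23763548-23763667, plus strand): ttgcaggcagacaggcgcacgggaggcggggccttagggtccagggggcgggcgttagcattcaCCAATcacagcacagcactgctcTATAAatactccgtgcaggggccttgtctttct
Hist1h1b (chr13:21780626-21780745, minus strand): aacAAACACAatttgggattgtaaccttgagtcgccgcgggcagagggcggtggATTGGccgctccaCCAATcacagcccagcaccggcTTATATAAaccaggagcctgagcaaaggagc
Hist1h1c (chr13:23738687-23738806, plus strand): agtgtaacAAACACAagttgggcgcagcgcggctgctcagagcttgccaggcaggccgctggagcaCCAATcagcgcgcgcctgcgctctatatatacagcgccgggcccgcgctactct
Hist1h1d (chr13:23554912-23555031, plus strand): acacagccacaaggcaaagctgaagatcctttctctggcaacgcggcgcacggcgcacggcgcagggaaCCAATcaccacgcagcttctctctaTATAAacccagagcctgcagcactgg
Hist1h1e (chr13:23622559-23622678, minus strand): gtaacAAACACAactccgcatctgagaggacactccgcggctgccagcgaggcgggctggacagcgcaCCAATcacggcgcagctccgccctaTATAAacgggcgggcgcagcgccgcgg
All 5 had CCAAT within the 250 bases searched, and 4 of 5 had AAACACA, with none in the window of Hist1h1a. Hist1h1c was the member without TATAA, though its window has a run of alternating t and a at the same place. The RefSeq start of Hist1h1d lies 1770 bases inside the longer GENCODE gene model.

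Of the 15 H2A genes, 6 were called lower and 1 higher (median -0.64). Most had few reads. Hist1h2ae (17 against 75 reads, -1.98) and Hist1h2an (15 against 66, -1.97) had, of the lower members, the interval bounds farthest from equality, with Hist2h2ac (76 against 235, -1.49). Hist1h2ap had the lowest ratio (-1.98) but only 7 against 32 reads. Hist1h2al, the most abundant by mean count, is the pseudogene model and had 884 against 960 reads (0.01). The higher member Hist2h2aa2 had 56 against 23 reads (1.40, 0.69 to 2.19). It shared 100% of its words with other transcripts, and its duplicate Hist2h2aa1 had no row, so its reads cannot be assigned to it alone. Median identity between coding sequences of the H2A genes of equal length was 97.1%.

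H2B genes were split, with 5 of 13 called lower, 0 higher and a median of -0.50. Hist1h2bg had 136 label-retaining against 498 non-retaining reads (-1.74), Hist1h2bb had 57 against 199 (-1.66), and Hist1h2bf had 51 against 148 (-1.39). The most abundant H2B gene went the other way without reaching 2-fold: Hist1h2bc, also on the polyadenylated list, had 1621 against 1294 reads (0.46, 0.35 to 0.57). Hist1h2bn had 169 against 119 (0.64), named after its value was seen. As Hist1h2bn shared 86.4% of its words with other transcripts, its own value is uncertain. Hist1h2bc held 1621 of the family's 2913 reads in the label-retaining and 1294 of 3622 in the non-retaining library, and the family sum was only -0.18 (-0.25 to -0.11). Under the keratin scaling Hist1h2bc and Hist1h2bn turned below 0.

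Promoter windows of 3 H2B genes, drawn in the same way, are given next because they differ in an octamer, ATTTGCAT, that is known in H2B promoters and bound by OCT1. Capitals mark that octamer, CCAAT boxes and TATA boxes on either strand.
Hist1h2bb (chr13:23746614-23746733, plus strand): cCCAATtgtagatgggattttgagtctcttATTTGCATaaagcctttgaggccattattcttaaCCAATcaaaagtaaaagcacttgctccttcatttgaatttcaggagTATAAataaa
Hist1h2bg (chr13:23571280-23571399, plus strand): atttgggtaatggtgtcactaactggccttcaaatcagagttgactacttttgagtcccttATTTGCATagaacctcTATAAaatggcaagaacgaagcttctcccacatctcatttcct
Hist1h2bn (chr13:21753956-21754075, plus strand): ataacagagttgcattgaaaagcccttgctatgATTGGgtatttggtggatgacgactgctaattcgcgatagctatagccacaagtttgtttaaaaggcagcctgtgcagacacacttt
Of 11 H2B genes with a RefSeq promoter, 4 held the octamer within 250 bases, and all 4 were called lower (Hist1h2bb, Hist1h2bg, Hist1h2bk and Hist2h2bb, median -1.70). Of the other 7, 1 was called lower (Hist1h2bf), and their median was -0.42. Hist1h2bc (0.46) and Hist2h2be (0.39) had no matched RefSeq promoter and are in neither count. They start 250 and 238 bases from the H2A genes Hist1h2ac and Hist2h2ac on the opposite strand, whose windows held the octamer. Those H2A windows lie almost wholly in the stretch between the paired genes, which is also upstream of Hist1h2bc and Hist2h2be. The octamer thus probably lies upstream of these H2B genes too, and neither was called lower. Their own windows were not searched, so the split covers the matched genes only. Hist2h2bb was no longer called with a pseudocount of 5 (-0.99). It shared 100% of its words with other transcripts and had the same reads, 41 against 95, as the H2A gene Hist1h2ac.

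The H3 family had 6 of 11 genes called lower, 1 higher and a median of -1.14, and its summed reads, 2142 against 4470, gave the lowest ratio of the 5 family sums (-0.93, -1.003 to -0.85). Hist1h3a (ENSMUSG00000069265.2, chr13:23761853-23762386) was the member farthest from equality of all 67, with 158 reads against 918, 5.28-fold lower (-2.40, -2.66 to -2.16). Hist2h3b had 154 against 561 reads (-1.73) and Hist1h3d had 73 against 179 (-1.16). The most abundant, Hist1h3e, had 812 against 1134 (-0.35). Hist2h3c2 was called higher with 45 against 19 reads (1.35). Hist2h3b and Hist2h3c2 are the most alike pair of the family, with coding sequences 99.8% identical, and lay on opposite sides. Hist2h3b shared 100% and Hist2h3c2 63.5% of its words with other transcripts.

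H4 genes had the median nearest to equality, with 2 of 12 called lower, 0 higher and a median of -0.13. Their sum was not the nearest: 12159 against 17159 reads gave -0.36 (-0.40 to -0.33), beside -0.34 for H2A and -0.18 for H2B. The pseudogene Hist1h2al supplied 884 of the 1614 label-retaining and 960 of the 2244 non-retaining H2A reads. Its ratio was 0.01, so the H2A sum lay nearer to equality than that of the protein-coding H2A genes. The medians of H4 and H1 were 1.41 apart on the log2 scale. Hist1h4a had 683 label-retaining against 1943 non-retaining reads (-1.37), and Hist4h4, alone on chromosome 6, had 775 against 1860 (-1.13). The most abundant replication-dependent gene, Hist1h4d, had 4861 against 7192 (-0.43, -0.48 to -0.38). Hist1h4i (728 against 489, 0.71), Hist1h4j (297 against 224, 0.54) and Hist1h4h (1735 against 1627, 0.23) had more normalised RNA in the label-retaining library, but all 3 turned below 0 under the keratin scaling. They are named here after their values were seen.

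**Figure D2:**
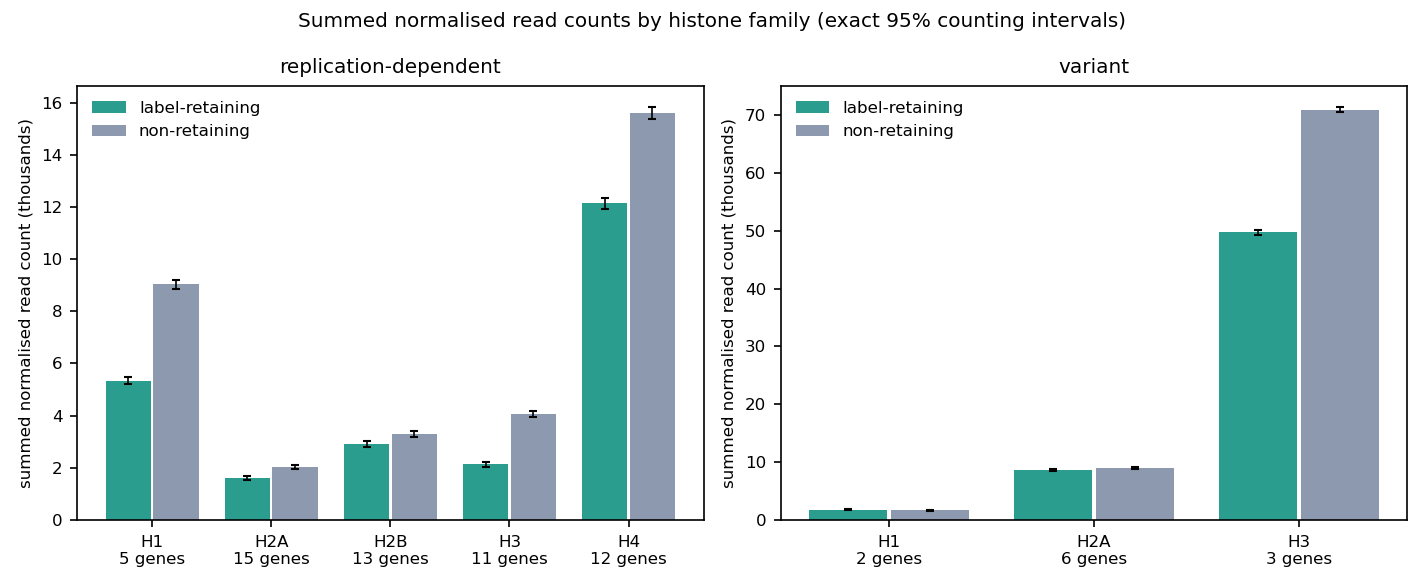
Summed normalised counts of each histone family in the label-retaining and the non-retaining library, with a panel for each class; bars start at 0 and whiskers are exact 95% counting intervals. The replication-dependent H3 and H1 families differ most between the libraries (log2 ratios of the sums -0.93 and -0.76) and the variant H2A family least (-0.05), and variant H3, mostly H3f3b, is the tallest.

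Variant linker histones did not share the shift of the cluster H1 genes. H1f0, which encodes H1.0, a linker histone of differentiated and resting cells, had 1696 label-retaining against 1789 non-retaining reads (0.06). H1fx, which encodes H1.10, had 61 against 46 (0.54). Neither was called, and both intervals held 0.

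Among the H2A variants, H2afj was the 1 called higher. H2afj, which encodes H2A.J (ENSMUSG00000060032.6, chr6:136808244-136810074), had 2618 label-retaining against 1431 non-retaining reads, a ratio of 1.005 (0.91 to 1.10), just past the 2-fold limit. It lies beside Hist4h4, which was called lower. H2afj alone of the variants stayed above 0 in every scaling, at 0.80 on total reads and 0.24 under the keratin scaling, and it was called in neither. The other 5 lay below 0 and were not called. H2afz, which encodes H2A.Z.1, a variant found at promoters, had 2205 against 3087 reads (-0.35), and H2afv, which encodes H2A.Z.2, had 698 against 870 (-0.18). H2afx, which encodes H2A.X, phosphorylated around DNA breaks, had 870 against 1042 (-0.13). H2afy, which encodes macroH2A1, had 2054 against 3161 (-0.49), and H2afy2, which encodes macroH2A2, had 199 against 253 (-0.21). MacroH2A proteins carry a large additional domain and are found in silenced chromatin.

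The genes of H3.3, the replacement histone for H3, were both lower by less than 2-fold. H3f3b had 43776 label-retaining against 65564 non-retaining reads (-0.45). H3f3a (ENSMUSG00000060743.11, chr1:180800832-180813943) had 6050 against 12376 (-0.90, -0.94 to -0.85). The intervals did not overlap, so the 2 genes of the same protein were unequally shifted in these libraries. The antisense transcript H3f3aos overlaps H3f3a and had 32 against 46 reads (-0.38). How strand was used in counting was not given in the sources used here.

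Nearest inside the 2-fold limit were H2afj (1.005), Hist1h2ac (-1.07) and Hist2h2bb (-1.07), and nearest outside it were Hist2h2ab (-0.93), H3f3a (-0.90) and Hist1h2bl (-0.89). No member had 0 reads in either library.

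Levels per length ranked one variant first by a wide margin. Per kilobase of exon, H3f3b had 14679 normalised counts in the label-retaining library and 20041 in the other. It was followed by Hist1h4d, at 4263 and 5749. In the non-retaining library Hist1h4a came next at 3279, close to H3f3a at 3213 and Hist1h4h at 3149, whereas in the label-retaining library Hist1h4a was at 1264 and Hist1h4h at 3684. Hist1h3a was at 295.3 and 1564. Hist1h2bc was at 1399 and 1018, and H2afj at 1427 and 711. The order by level was therefore not the same in the libraries for cluster genes of the same family. Annotated length differs between models of near-identical genes, and levels per length move with it.

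**Figure D3:**
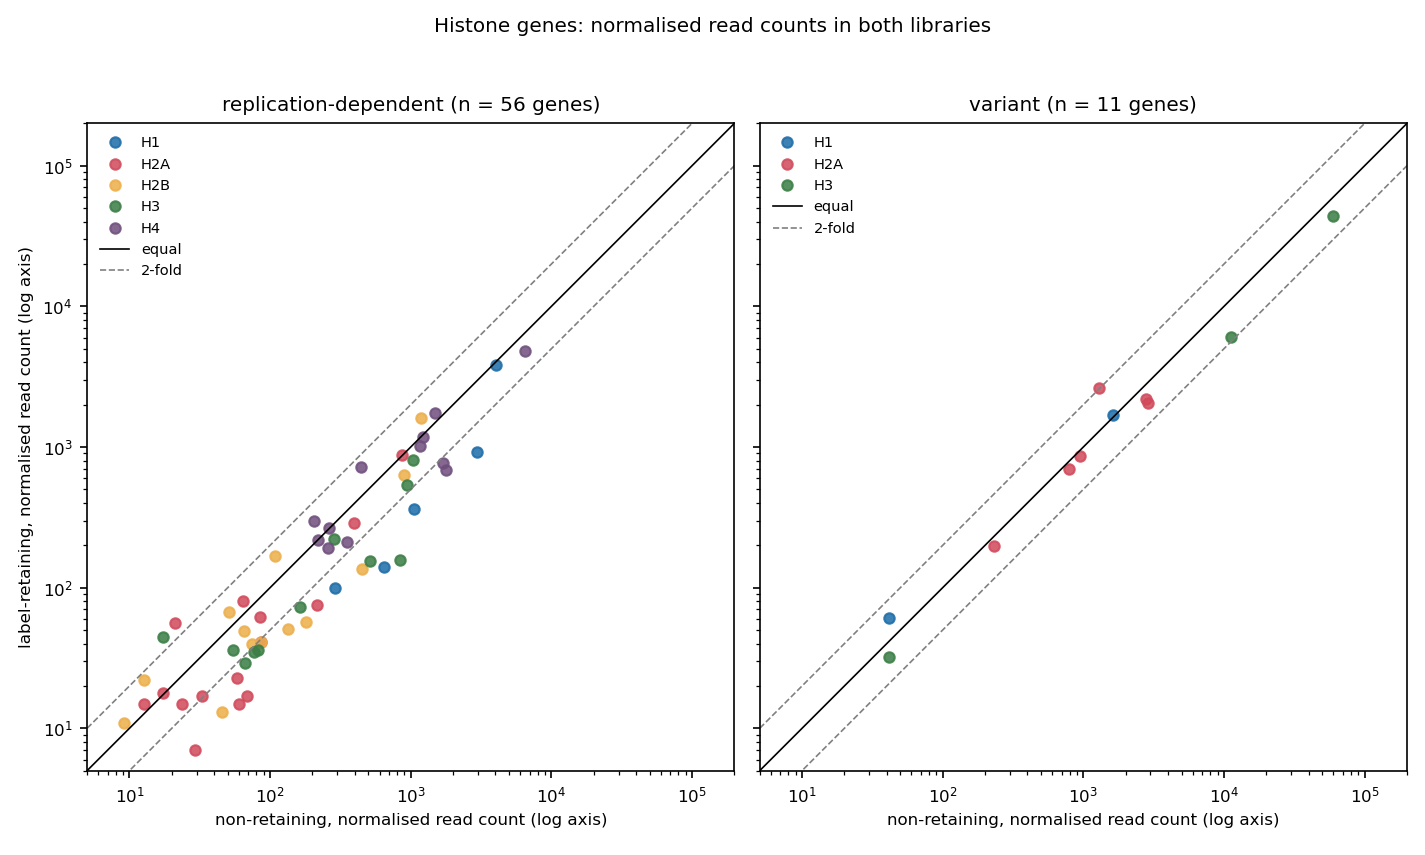
Normalised counts, not divided by length, of each histone gene in the label-retaining library (vertical) against the non-retaining library (horizontal), both on log axes, with a panel for each class; the solid line is equality and dashed lines mark 2-fold. Most replication-dependent genes lie below the solid line (40 of 56), and among the variants H2afj (1.005) is on the upper dashed line.

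The list of cluster genes known to make polyadenylated messages (Hist1h1c, Hist1h2bc and Hist2h2be) had 0 members called. Hist2h2be had 67 reads against 56 (0.39). The 3 summed to 5509 against 5816 reads, a ratio of 0.06 (0.00 to 0.11), which a total-read or keratin scaling takes below 0. The class as a whole was at -0.50. Sorted by where the annotated transcript ends, the 18 genes with a model of 100 bases or fewer after the hairpin had 8 lower (median -0.69). The 19 genes with a longer model had 7 lower (median -0.43). A longer model says that a longer message is annotated, not that these cells made it.

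Position within the clusters was compared next, with gaps of up to 100 kb joined into a block. The largest block, 27 genes over 233 kb of chromosome 13 from Hist1h4h to Hist1h1a, had 14 lower, 0 higher and a median of -1.07. The block of 13 genes over 118 kb of the same chromosome had 4 lower (median -0.45), and the small block between them 1 of 4. The 8 genes on chromosome 3 had 3 lower and both higher members (median -0.56). Within the largest block Hist1h1a, Hist1h3a and Hist1h4a, which are neighbours at its end, were at -2.20, -2.40 and -1.37, while Hist1h4h at its other end was at 0.23. The families are not spread evenly over the blocks, and 4 of the 5 H1 genes lie in the largest.

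**Figure D4:**
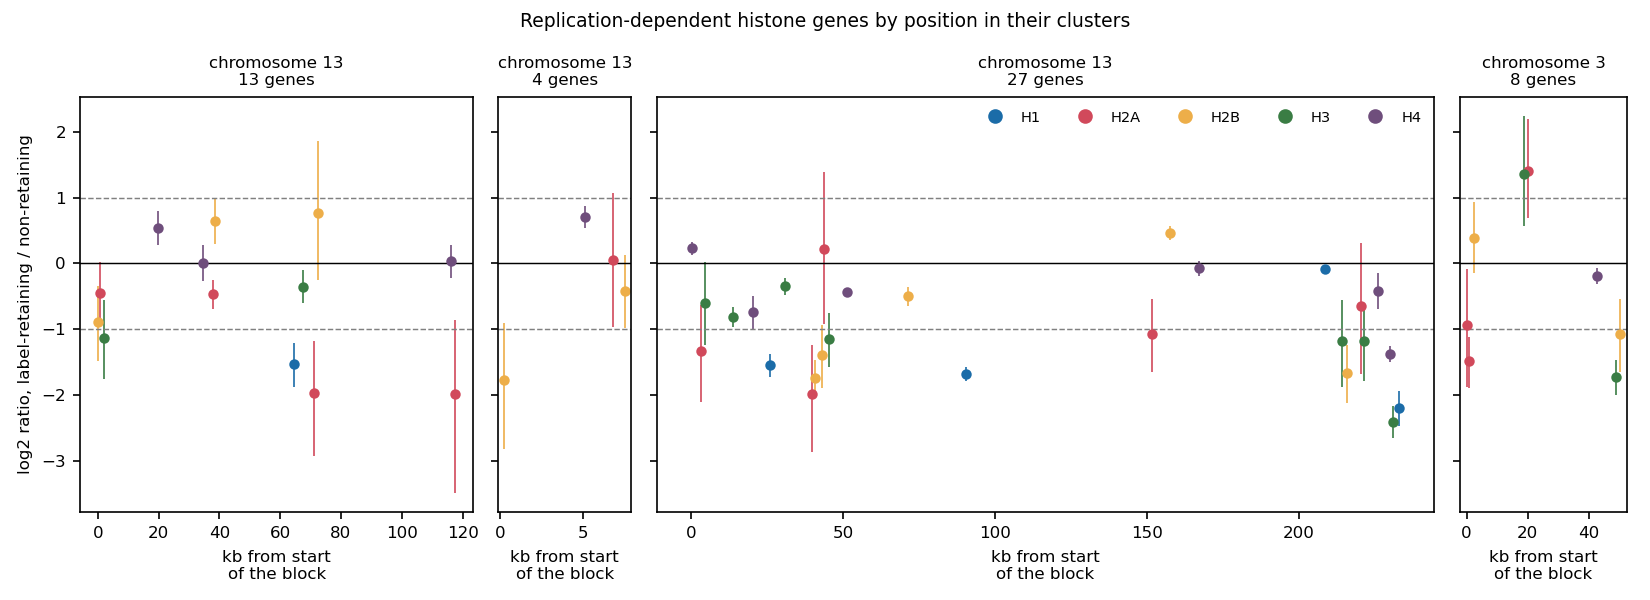
Log2 ratio of each replication-dependent gene against its distance in kilobases from the start of its block, for blocks of 4 or more genes; colours are families and bars exact 95% counting intervals. The largest block has a median of -1.07, and genes next to each other can differ by over 1 log2 unit.

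Divergent pairs gave the closest look at neighbours. In 8 pairs an H2A and an H2B gene start 175 to 295 bases apart on opposite strands and share that stretch as upstream sequence. The counting intervals of the pair overlapped in 3 of 8, and the genes had the same sign in 2 of 8. Among pairs of opposite sign, only Hist1h2ak with Hist1h2bn and Hist1h2ac with Hist1h2bc had intervals that excluded 0 in both genes. Signs also depend on the scaling: under the keratin scaling Hist1h2bp, at 0.00018, was the only gene of these pairs above 0. Hist1h2ae and Hist1h2bg were the closest pair, at -1.98 and -1.74. Hist1h2an and Hist1h2bp were the farthest apart, at -1.97 and 0.76, a difference of 2.73, though Hist1h2bp rested on 22 against 14 reads. Hist2h2ac (-1.49) and Hist2h2be (0.39) differed by 1.88, and Hist1h2ac (-1.07) and Hist1h2bc (0.46) by 1.53. In both of these pairs the H2B partner is on the polyadenylated list.

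Over the whole class, CCAAT and the octamer were spread unevenly over the families, whereas TATAA was found in more than 50% of the windows of each family. RefSeq promoters were matched for 59 of the 67 members, 50 of them replication-dependent. Hist1h2bc and Hist2h2be, which were not lower, are among the unmatched members. CCAAT was found in 41 of these 50 (82%), against 33.8% of 32817 promoters of the same length: in all H1, H2A and H2B windows, 8 of 9 H3 and 3 of 11 H4 windows. Of the 41 genes with it, 21 were called lower (median -1.07), and of the 9 without it 1 was (median 0.03). As 8 of those 9 are H4 genes, the motif and the family cannot be told apart here. TATAA was found in 34 of 50 (68%), against 22.8% of all promoters. Of these 34 genes 19 were lower, and of the other 16, 3. The octamer was found in 9 of 50 (18%), against 1.60%, and 7 of the 9 were lower. The 2 others, Hist1h2ab and Hist3h2a, are H2A genes at -0.64 and 0.34. The octamer of Hist1h2bg also lies in the window of its divergent partner Hist1h2ae, so this site was counted for both of these lower genes. A match describes letters in a window and does not show that a factor was bound.

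For H4 the window of the lowest member is set beside that of the highest, with capitals for CCAAT (also read as its complement ATTGG) and TATAA.
Hist1h4a (chr13:23761250-23761369, minus strand): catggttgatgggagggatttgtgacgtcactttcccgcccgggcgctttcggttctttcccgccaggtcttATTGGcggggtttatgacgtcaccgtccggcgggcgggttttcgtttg
Hist1h4i (chr13:22041363-22041482, minus strand): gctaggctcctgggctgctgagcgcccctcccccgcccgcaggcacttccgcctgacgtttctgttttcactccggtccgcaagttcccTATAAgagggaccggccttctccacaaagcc
Hist1h4a (-1.37) had CCAAT on the reverse strand, and Hist1h4i (0.71) had TATAA and no CCAAT. The other 2 H4 genes with CCAAT, Hist1h4c and Hist1h4d, were at -0.07 and -0.43. Of the H4 genes without CCAAT 1 was also called lower, Hist4h4 (-1.13), and its window had TATAA. Medians were -0.43 with CCAAT and 0.02 without it.

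How far reads can be assigned to single genes differed between the classes. Of the 50-base words in their transcripts, replication-dependent genes shared a median of 51.9% with other genes' transcripts, and variant genes 7.002%. The 28 cluster genes that shared at most 50% had 13 lower, 0 higher and a median of -0.77. The 28 that shared more had 10 lower, both higher members and a median of -0.53. The authors' treatment of reads that fit several genes was not given in the sources used here, and values of single genes in the second set are uncertain.

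Calls were also counted by depth. The 15 cluster genes with a mean normalised count under 50 had 6 lower and both higher calls, with a median interval half-width of 0.90 on the log2 scale. The 15 genes between 50 and 200 had 9 lower (half-width 0.48), and the 26 above 200 had 8 lower (half-width 0.16). The best-counted genes had a median of -0.43, and the genes of middling depth, which were called lower most often, one of -1.07.

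Few genes that make and process histone messages were called on the deposited scaling. Of 22 measured on a list of such factors, 0 were higher and 3 lower, beside 14.5% and 19.4% of all measured genes. Under the keratin scaling 0 were higher and 10 lower, beside 5.57% and 40.05% of all measured genes. On the deposited scaling their median was -0.17, with a range from -1.29 to 0.75. Slbp, which encodes the hairpin-binding protein, had 1494 label-retaining against 3644 non-retaining reads (-1.15, -1.24 to -1.07). Eri1, which encodes an exonuclease that trims the hairpin end, had 515 against 1383 (-1.29), and Tut4, which encodes a uridylyltransferase of histone message decay, had 814 against 2184 (-1.29). Npat, the cyclin E target that activates the clusters, was at -0.43, and Casp8ap2, which encodes the cofactor FLASH, at -0.80. Upf1, the helicase of message decay and the most abundant of the list, was at -0.01.

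Histone chaperones differed from one another. Of 34 measured, 1 was higher and 5 lower (median -0.32), beside 14.5% and 19.4% of all measured genes. Under the keratin scaling 0 were higher and 18 lower, beside 5.57% and 40.05% of all measured genes. Values below are on the deposited scaling. Nasp, the carrier of free H3 and H4, had 1296 against 3749 reads (-1.40), and Asf1b, the chaperone linked to replication, had 31 against 77 (-1.17), while its paralog Asf1a was at -0.61. The chromatin assembly genes Chaf1a and Chaf1b were at -0.98 and -0.40. For the H3.3 pathways, Hira was at -0.66, Daxx at -0.12 and Atrx at 0.01, whereas Ubn2, of the HIRA complex, was higher with 7061 against 2553 reads (1.60). Cenpa, the centromeric H3 variant, which the symbol rule does not take in, had 45 against 446 reads (-3.16, -3.65 to -2.73), and its chaperone Hjurp was at -0.05. Anp32e, which removes H2A.Z, was at -0.55, and Npm1, the most abundant of the list, at -0.80.

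Genes of DNA replication were more often lower. Of 22 measured genes of S phase and cycling, 0 were higher and 8 lower (19.4% of all measured genes were), with a median of -0.71 beside -0.62 for the replication-dependent histones. Cdt1, which licenses origins, was at -1.77, the helicase genes Mcm3 and Mcm5 at -1.72 and -1.66, and the clamp gene Pcna at -1.15. Mki67, a marker of cycling cells, was at -0.73 and was not called. The list ranged up to 0.40, with Cdc6 at that value, Top2a at -0.01 and Mcm2 at -0.24, named after their values were seen. Basal and leukocyte markers were lower in the same library, as given above, and their part in these values was not tested.

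**Figure D5:**
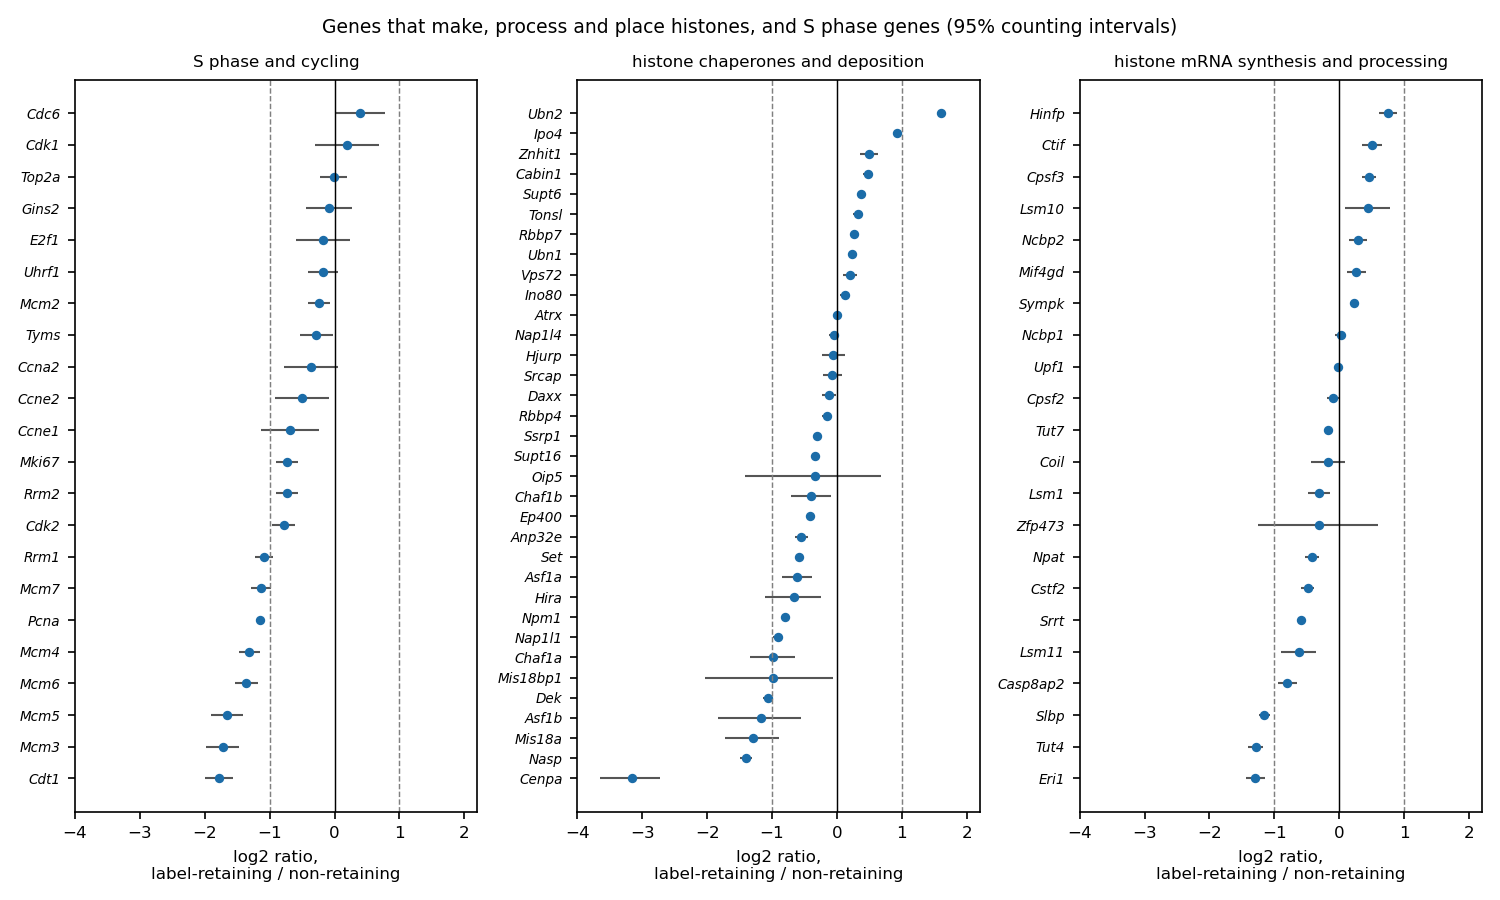
Log2 ratio (label-retaining over non-retaining) of each measured gene of 3 lists, with a panel for each list; points are genes, bars are exact 95% counting intervals and dashed lines mark 2-fold. In the S phase panel 8 of 22 genes are called lower, and Cenpa, in the chaperone panel, is the lowest point at -3.16.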

How the data were processed

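Total RNA from sorted label-retaining and non-retaining luminal cells was sequenced, 1 library per group. Per the submitters' processing notes, the mm10 build and the tools DESeq 1.16.0, HTSeq 0.6.0, Bowtie2 2.1.0, TopHat2 2.0.10 and CASAVA 1.8.2 were used. Which annotation was counted on, and how strand and reads that fit several genes were handled, was not given in the sources used here. Deposited values are a normalised signal: the authors' gene counts over a size factor of each library. Each value was a whole multiple of a step (100% of values, tolerance 0.001), which gave back whole reads and size factors of 1.00 and 1.10.

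Symbols, positions and transcripts came from GENCODE M21 on GRCm38, and promoters from RefSeq on GRCm38.p6. Ratios used a pseudocount of 0.5 normalised counts. Genes with a mean of at least 10 were measured. With 1 library per group no count test was possible, so calls are by size (2-fold) and counting interval. The precision of each library is that of its 50689229 or 48334265 reads. Members, gene lists and the keratin scaling were chosen with earlier results of these data known. Genes were named by rule: all variants, the most abundant of each family, up to 3 called members per direction and family (those whose interval stayed farthest from equality), and set pathway genes; other names are marked as chosen later or serve a pair, block, motif or level comparison. Alternatives were 4 scalings, other pseudocounts, filters and fold limits, protein-coding members only, and leaving out abundant members or, added after seeing the data, members that share most of their sequence. Python 3.11.15 (numpy 2.4.6, pandas 2.3.3, scipy 1.17.1, matplotlib 3.10.9) and edgeR 4.0.16 in R 4.3.3, for TMM factors only, were used. The calculation was tested on simulated data.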

Additional observations from a re-analysis of the deposited data

How the results depend on the processing

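No called gene changed direction, nor did the class results, the medians of the replication-dependent families and those of the 3 pathway lists under the alternatives run for each. The polyadenylated list's sum and H1f0 turn below 0 under both the total-read and the keratin scaling, and H1fx under the keratin scaling. None of these genes was called. Of the class and list results under an alternative 93 were unmoved and 33 moved, of the family results 125 and 25, and of the gene results 506 and 219, mostly under the total-read and keratin scalings. With a pseudocount of 5, Hist1h2ac and Hist2h2bb (both -0.99) were no longer called. Scaled on total reads, the replication-dependent sum was -0.70. The variant class had 0 higher and 1 lower, a median of -0.41 and a sum of -0.64, chaperones had 9 lower (median -0.52), and the processing median was -0.37. Scaled on Krt8 and Krt18, where 5.57% of all measured genes were higher and 40.05% lower, replication-dependent genes had 0 higher and 37 lower (median -1.38, sum -1.26), and variants 0 higher and 5 lower (median -0.97, sum -1.20). S phase genes then had 16 lower (median -1.47), chaperones 0 higher and 18 lower (median -1.08), and processing genes 10 lower (median -0.93). With a mean of at least 50, 0 replication-dependent genes were higher and the chaperone median was -0.23. A 1.5-fold limit gave 4 higher replication-dependent genes and 1 lower variant, and a 3-fold limit 0 higher and 10 lower replication-dependent genes and 0 higher variants. Without H3f3b the variant sum was -0.41. Without members that share over 50% of their words, chosen after seeing the data, 0 replication-dependent genes were higher and 13 lower. The scaling shifts follow from their construction, and the smaller sets from fewer genes. No paired analysis was possible because each group has 1 library and the labels give no replicate numbers, and no library could be left out. Counting depth limits the low members most: below a mean of 50 the median half-width was 0.90.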
